A study of Homo sapiens with 12 samples.

Results

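The MYC, MAX and MXD network was examined at the level of its transcripts in HCT116 cells, a human colorectal carcinoma cell line of epithelial origin. It was represented by 9 genes, selected by symbol among the 58233 genes of the count table: MYC, MAX, MNT, MXI1, MXD1, MXD3, MXD4, MLX and MLXIP. All 9 passed the filter on low counts, as did 16657 genes in all. RNA was sequenced from 4 groups with 3 libraries each. The parental cells (HCT116 Tet-OsTIR1) carry OsTIR1, a plant F-box protein, under a doxycycline-inducible promoter. The SDS22-degron cells were derived from them, carry the same OsTIR1 and express endogenous SDS22 (encoded by PPP1R7) fused to mAID-mClover, although their genotype label reads HCT116 Tet-OsTIR1 SDS22 WT. Each line was either untreated or exposed during 48 h to Dox/IAA, that is 2 µg/ml doxycycline (Dox) in combination with 500 µM of the auxin IAA, which makes OsTIR1 target the tagged protein for degradation. SDS22 is a regulator of protein phosphatase-1 (PP1), and the comparison of lines and treatments asks how its loss affects the cells. The treated parental cells show what Dox/IAA does without a degron, and no libraries with Dox or IAA alone were analysed here. The replicates are biological replicates according to the labels.

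Between 12133915 and 14657508 reads were counted per library. The transcript of PPP1R7 changed by 0.12 on the log2 scale (adjusted p = 0.265 in edgeR) with Dox/IAA in SDS22-degron cells, and this does not check the labels, since the degron acts on the protein. The 5 epithelial markers EPCAM, KRT8, KRT18, KRT19 and CDH1 summed to between 2634 and 4191 CPM (counts scaled to the normalized library size) in every group. In parental cells the sum was 3458 to 3843 CPM without and 2634 to 3111 CPM with Dox/IAA. In SDS22-degron cells, mean CDH1 went from 94.5 to 189 CPM with Dox/IAA and KRT19 from 1043 to 1106 CPM. KRT8 went from 1635 to 1296 CPM and KRT18 from 749 to 611 CPM, while EPCAM had 287 CPM in both groups. Of 3 leukocyte markers, CD3E had 0 counts in all 12 libraries, and the 3 together did not exceed 0.158 CPM. Of 3 endothelial markers, CDH5 was at 0 throughout, and their sum lay between 0.237 and 0.802 CPM except in treated SDS22-degron cells (1.07 to 1.73 CPM), where VWF rose with Dox/IAA (log2 fold change 1.05, adjusted p = 0.0261). Of 4 fibroblast markers, COL1A2 and DCN were at 0 throughout and PDGFRB did not exceed 3 counts. The remaining one, COL1A1, rose with Dox/IAA from a mean of 11.5 to 20.1 CPM in parental cells (0.81, adjusted p = 0.000749) and from 14.5 to 27.8 CPM in SDS22-degron cells (0.94, adjusted p = 2.8e-05). The part of these markers in the results for the network genes was not tested.

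MYC is a transcription factor with a basic helix-loop-helix leucine zipper domain that binds DNA only as a dimer with MAX. The dimer recognises the E-box, with the sequence CACGTG as its preferred form, and activates genes for ribosome biogenesis, nucleotide synthesis and cell growth. The MXD proteins (MXD1, MXI1, MXD3 and MXD4) and MNT compete with MYC for MAX and for the same sites, where they recruit the SIN3-HDAC corepressor. MLX is a MAX-like partner that dimerises with MXD1, MXD4 and MNT, and also with MLXIP (MondoA) and MLXIPL (ChREBP), which respond to glucose-derived metabolites. In the colon epithelium, MYC is a known target of Wnt signalling, and MXD1, MXI1 and MXD4 are typically found in cells that leave the cell cycle.

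The E-box is the element that the protein products of these genes have in common, and some network genes carry it themselves. RefSeq promoter windows of GRCh38.p14 were searched for the letters CACGTG, which read the same on both strands, in the 250 bases before each transcription start. Of 35116 such windows, 6.34% held it. The 8 members other than MYC had 11 such windows. CACGTG occurred in 1 window each of MXD4, MNT and MLX, and in none of those of MAX, MXD1, MXD3, MLXIP or the 3 windows of MXI1. The stretches that lie upstream of the deposited gene starts are shown for these 3 members, for MXI1 as a member that rose but lacks the letters in its window, and for ARRDC4, a target of MondoA described below. Capitals mark the E-box, and each sequence is written on the strand of the gene.
MXD4 (chr4:2262295-2262359, minus strand): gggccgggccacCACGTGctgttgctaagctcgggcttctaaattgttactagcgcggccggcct
MNT (chr17:2401119-2401310, minus strand): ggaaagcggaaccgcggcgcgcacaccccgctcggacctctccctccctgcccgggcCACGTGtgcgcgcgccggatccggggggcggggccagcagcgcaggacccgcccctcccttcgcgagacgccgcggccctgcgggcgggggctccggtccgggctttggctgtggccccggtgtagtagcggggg
MLX (chr17:42566850-42567067, plus strand): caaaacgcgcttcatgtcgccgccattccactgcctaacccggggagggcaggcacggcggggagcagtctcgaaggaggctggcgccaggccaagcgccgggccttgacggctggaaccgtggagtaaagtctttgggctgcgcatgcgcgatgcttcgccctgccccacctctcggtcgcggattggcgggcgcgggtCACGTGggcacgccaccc
MXI1 (chr10:110207355-110207604, plus strand): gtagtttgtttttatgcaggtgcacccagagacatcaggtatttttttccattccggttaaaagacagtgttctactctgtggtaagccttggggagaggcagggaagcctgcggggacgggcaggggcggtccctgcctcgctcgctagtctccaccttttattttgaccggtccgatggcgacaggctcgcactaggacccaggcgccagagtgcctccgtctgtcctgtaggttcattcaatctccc
ARRDC4 (chr15:97960453-97960697, plus strand): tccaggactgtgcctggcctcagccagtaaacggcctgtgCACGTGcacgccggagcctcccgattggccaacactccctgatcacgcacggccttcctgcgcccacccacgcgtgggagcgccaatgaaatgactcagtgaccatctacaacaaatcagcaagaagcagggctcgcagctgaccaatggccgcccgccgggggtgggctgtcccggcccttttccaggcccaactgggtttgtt
The E-box ended 13 bases before the deposited start of MLX, 48 bases before that of MXD4, 130 bases before that of MNT and 200 bases before that of ARRDC4. The RefSeq starts used for the search differ from these. The E-box began 50 bases before the RefSeq start of MLX, 238 before that of MXD4, 193 before that of MNT and 210 before that of ARRDC4. A match is a description of the letters and not of binding.

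MYC transcripts dropped with Dox/IAA in both lines. In SDS22-degron cells, the transcripts of 3 of its antagonists (MXD4, MXI1 and MXD1) rose, while MXD3 fell and no change of MNT was called. Dox/IAA changed 7 of the 9 network genes in SDS22-degron cells, with 3 higher and 4 lower, at an adjusted p under 0.05 in the quasi-likelihood test of edgeR. By the same rule, 51.5% of all tested genes changed in that comparison (26% higher and 25.5% lower). In parental cells, Dox/IAA changed 2 of the 9, both lower, against 31.6% of all tested genes. The share of higher genes among all those called in parental cells was 50.5%, or 64.1% with normalization by library size only. Between the treated lines, 7 members differed (4 higher and 3 lower in SDS22-degron cells), against 44.9% of all tested genes (21.8% higher and 23.1% lower). Between the untreated lines this was 1 member, against 28.2% of all tested genes. The interaction, which tests whether the Dox/IAA effect differed between the lines, was called for 3 members, namely MXD4, MXI1 and MXD3, against 14.4% of all tested genes. With the study's own cut-off (an unadjusted p under 0.05 with a change of more than 1 on the log2 scale), MYC and MXD4 remained in the SDS22-degron response, that is 2 members against 7.83% of all tested genes. In the parental response MYC remained, that is 1 member against 3.14%. No member passed it between the treated lines (0 against 6.63%), between the untreated lines (0 against 4.14%) or in the interaction (0 against 3.6%), where 7, 1 and 3 members had an adjusted p under 0.05. The libraries of the groups did not overlap for 7 members in the SDS22-degron response (59.9% of all tested genes), 2 in the parental response (41.3%), 5 between the treated lines (52.9%) and 2 between the untreated lines (43.5%).

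**Figure D1:**
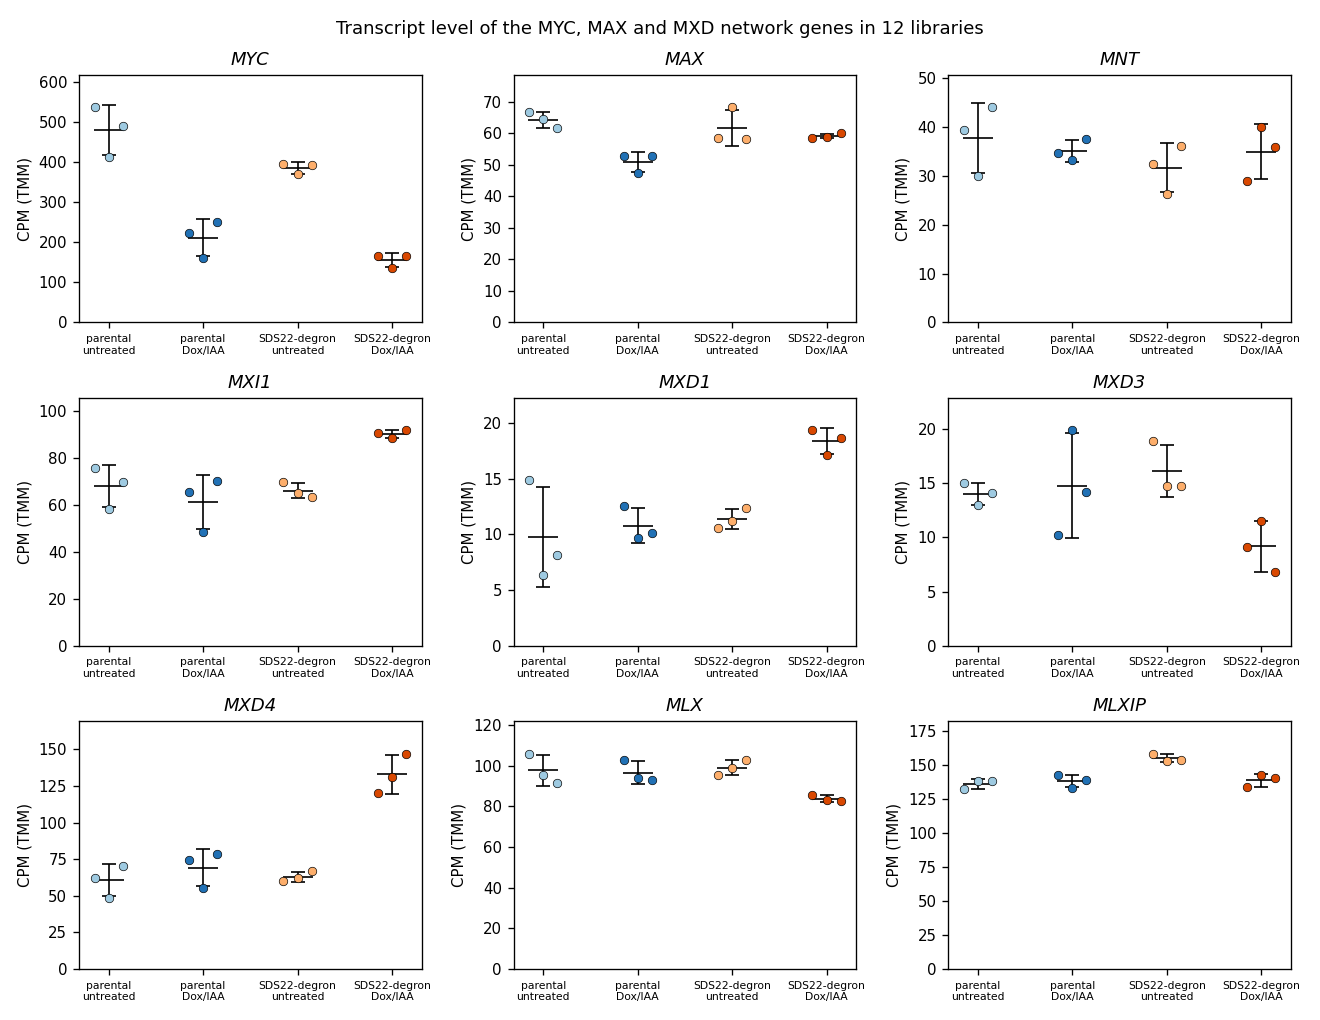
Level of each network gene in TMM-normalized CPM (vertical axes from 0) in the 4 groups on the horizontal axes. Points are libraries, and bars are the mean ± SD (n = 3). MYC was lower in both treated groups, and the 3 treated SDS22-degron libraries had the highest values of all 12 for MXD4, MXI1 and MXD1. For MXD3, the treated SDS22-degron libraries lay below the untreated ones of that line, and for MNT these groups overlapped.

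MYC (chr8:127735434-127741434, plus strand) had 537, 413 and 490 CPM in the untreated parental libraries and 224, 161 and 250 CPM in the treated ones. In SDS22-degron cells it had 395, 369 and 393 CPM without and 167, 136 and 166 CPM with Dox/IAA. Treated and untreated libraries did not overlap in either line, while the lowest treated parental library (161) lay among the treated SDS22-degron libraries. The means were 479.9 ± 62.5 and 211.6 ± 45.8 CPM in parental cells and 385.5 ± 14.4 and 156.4 ± 17.7 CPM in SDS22-degron cells (SD, n = 3). MYC was thus reduced to 44.1% of the untreated level in parental cells (log2 fold change -1.18 ± 0.125 SE, adjusted p = 2.66e-06). In SDS22-degron cells it was reduced to 40.6% (log2 fold change -1.30 ± 0.126, adjusted p = 1.37e-07). The difference between both responses was -0.12 on the log2 scale, with a 95% confidence interval from -0.49 to 0.25 (adjusted p = 0.701). In bulk RNA, a lower level per cell and a lower share of cells that contain the transcript cannot be told apart.

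Between the treated lines, MYC was lower in SDS22-degron cells (log2 fold change -0.44 ± 0.126, adjusted p = 0.00842). This call was lost without replicate 3 of the treated parental cells (-0.30, adjusted p = 0.0672) and without replicate 2 of the treated SDS22-degron cells (adjusted p = 0.0518). The untreated SDS22-degron libraries were all below the untreated parental ones, but the difference of -0.32 ± 0.123 did not pass the test (adjusted p = 0.062). The latter difference passed in 9 of 23 alternatives. Among these were the likelihood ratio test of edgeR (adjusted p = 0.0471), a block on replicate numbers (0.0049), a GC correction (0.0286) and both corrections together (0.00199). The difference also passed with only the untreated groups in the fit (0.00994) and without a filter on low counts (0.000117). It passed as well without replicate 2 of the untreated parental cells (-0.39, adjusted p = 0.0246). The same held without replicate 2 (adjusted p = 0.0109) or 3 (adjusted p = 0.0419) of the treated parental cells. The genes of chromosome 8 had a median of -0.11 between the untreated lines and -0.13 between the treated lines, and the part of this shift in the MYC difference was not tested.

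MAX (chr14:65006174-65102695, minus strand), the obligate partner of MYC and of the MXD proteins, was lower with Dox/IAA in parental cells. It had 66.8, 64.7 and 61.6 CPM in the untreated and 52.9, 47.4 and 52.9 CPM in the treated parental libraries. In SDS22-degron cells it had 58.5, 68.4 and 58.2 CPM without and 58.7, 59.0 and 60.0 CPM with Dox/IAA. The parental groups were apart and those of SDS22-degron cells overlapped. The log2 fold change was -0.33 ± 0.0760 in parental cells (adjusted p = 0.00266) and -0.06 ± 0.0751 in SDS22-degron cells (adjusted p = 0.534). The difference between both responses did not pass the test, with 0.27 on the log2 scale and a 95% confidence interval from 0.05 to 0.50 (adjusted p = 0.0948), although it did without replicate 2 of the untreated SDS22-degron cells (0.36, adjusted p = 0.0425). Treated SDS22-degron cells had more MAX than treated parental cells (0.21 ± 0.0762, adjusted p = 0.0285). The call was lost without replicate 2 of the treated parental cells (adjusted p = 0.0833) and without replicate 2 (0.056) or 3 (0.0693) of the treated SDS22-degron cells. It was also lost with a GC correction (0.17, adjusted p = 0.0703, or 0.0674 with the replicate block as well) and without a filter on low counts (0.0855). Genes of chromosome 14 had a median of 0.11 in this comparison. MAX overlaps FNTB on the opposite strand over 56479 bases, with at most 226 counts of FNTB in a library.

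MXD4 (chr4:2247432-2262294, minus strand), a repressor of MYC target genes, had the largest rise among the members. The untreated SDS22-degron libraries had 60.1, 62.2 and 66.8 CPM, and the treated ones 120, 131 and 147 CPM. In parental cells the values were 62.4, 48.6 and 70.3 CPM without and 74.1, 55.1 and 78.4 CPM with Dox/IAA. All 3 treated SDS22-degron libraries exceeded all 9 others, whereas the parental groups overlapped. The log2 fold change was 1.08 ± 0.124 in SDS22-degron cells (2.11-fold, adjusted p = 9.87e-07) and 0.20 ± 0.127 in parental cells (adjusted p = 0.254). The latter passed the test only without replicate 2 of the treated parental cells (0.34, adjusted p = 0.0296). The response was 0.88 ± 0.177 higher in SDS22-degron than in parental cells (adjusted p = 0.00253). Between the treated lines MXD4 differed by 0.94 ± 0.123 (adjusted p = 6.68e-06), against 0.06 (adjusted p = 0.764) between the untreated lines.

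MXI1 (chr10:110207605-110287365, plus strand), also known as MXD2, rose in treated SDS22-degron cells as well. It had 69.6, 65.0 and 63.2 CPM without and 90.2, 88.3 and 91.6 CPM with Dox/IAA in these cells. The parental values were 75.5, 58.1 and 69.8 CPM without and 65.2, 48.3 and 70.1 CPM with Dox/IAA. The treated SDS22-degron libraries were again the 3 highest of 12, and in both parental groups replicate 2 was the lowest, as it was for MYC, MXD4 and MXD1. The log2 fold change was 0.45 ± 0.108 in SDS22-degron cells (adjusted p = 0.00195) and -0.15 ± 0.110 in parental cells (adjusted p = 0.336). The responses differed by 0.60 ± 0.154 (adjusted p = 0.0144), and the treated lines by 0.56 ± 0.109 (adjusted p = 0.000413).

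MXD1 (chr2:69897688-69942945, plus strand), the founding member of the MXD family, was less abundant. It had 10.6, 11.2 and 12.4 CPM in untreated and 19.4, 17.1 and 18.7 CPM in treated SDS22-degron libraries. The parental libraries had 14.9, 6.33 and 8.16 CPM without and 12.6, 9.64 and 10.2 CPM with Dox/IAA. The treated SDS22-degron libraries lay above all others, but the untreated parental libraries were widely spread. The log2 fold change was 0.69 ± 0.192 in SDS22-degron cells (adjusted p = 0.00546) and 0.77 ± 0.194 between the treated lines (adjusted p = 0.0035). The response in parental cells was 0.15 ± 0.210 (adjusted p = 0.625), and the difference between both responses was 0.54 ± 0.285, with a 95% confidence interval from -0.06 to 1.14 (adjusted p = 0.22). That difference passed the test without replicate 2 of the untreated parental cells (0.76, adjusted p = 0.036) and without a filter on low counts (0.54, adjusted p = 0.0417). It was 0.10 at the lowest with another library left out. Without replicate 1 of the untreated parental cells, MXD1 was called higher in treated parental cells (0.57, adjusted p = 0.0115) and in untreated SDS22-degron cells (0.66, adjusted p = 0.00432). On the same strand, MXD1 overlaps SNRNP27, which had at most 254 counts in a library, so that reads of both genes may not be fully separated.

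MXD3 (chr5:177301461-177312757, minus strand), which is described in cells that replicate their DNA, moved the other way. It had 18.9, 14.7 and 14.8 CPM in untreated and 9.15, 11.5 and 6.84 CPM in treated SDS22-degron libraries. The parental libraries had 15.03, 12.98 and 14.1 CPM without and 10.3, 19.9 and 14.2 CPM with Dox/IAA. The SDS22-degron groups did not overlap, but the treated groups of both lines did. MXD3 was reduced to 57.1% in SDS22-degron cells (log2 fold change -0.81 ± 0.199, adjusted p = 0.00235), compared with a response of 0.08 ± 0.193 in parental cells (adjusted p = 0.802). The responses differed by -0.88 ± 0.278 (adjusted p = 0.0394). That call was lost on leaving out any of 10 of the 12 libraries in turn, with an adjusted p of up to 0.124 and a difference between -1.11 and -0.60. Between the treated lines MXD3 was lower in SDS22-degron cells (-0.68 ± 0.203, adjusted p = 0.0103), except without replicate 2 of the treated parental cells (-0.39, adjusted p = 0.101) or replicate 3 of the treated SDS22-degron cells (adjusted p = 0.0655). MXD3 overlaps RAB24 on the same strand (at most 37 counts) and PRELID1 on the opposite strand (at most 2090 counts), and the strand setting of the counting is not given in the sources used here.

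MNT (chr17:2384060-2401118, minus strand), the most widely expressed MAX-bound repressor of the network, did not pass the test in any of the 5 comparisons. It had 39.3, 29.9 and 44.0 CPM in untreated and 34.6, 33.2 and 37.5 CPM in treated parental libraries. In SDS22-degron cells it had 32.4, 26.3 and 36.1 CPM without and 29.0, 40.0 and 35.8 CPM with Dox/IAA. All groups overlapped. The Dox/IAA response was 0.15 in SDS22-degron cells, with a 95% confidence interval from -0.14 to 0.44, and -0.10 in parental cells, with an interval from -0.39 to 0.19. Between the untreated lines, the difference of -0.26 passed the test without replicate 2 of the untreated parental cells (-0.38, adjusted p = 0.0425) and when all genes with a count were kept (adjusted p = 0.0414).

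MLX (chr17:42567068-42573239, plus strand) was lower in treated SDS22-degron cells. It had 95.5, 98.7 and 103 CPM in untreated and 85.5, 82.9 and 82.6 CPM in treated SDS22-degron libraries, while the 6 parental libraries ranged from 91.6 to 106 CPM. The treated SDS22-degron libraries were the 3 lowest of 12. The log2 fold change was -0.24 ± 0.0686 in SDS22-degron cells (84.5% of the untreated level, adjusted p = 0.00644) and -0.01 ± 0.0685 in parental cells (adjusted p = 0.894). The difference between both responses was -0.23, with a 95% confidence interval from -0.43 to -0.02 (adjusted p = 0.128), and reached an adjusted p of 0.05 without replicate 1 of the untreated parental cells (-0.30). Between the treated lines MLX differed by -0.21 ± 0.0688 (adjusted p = 0.0203), but not past the threshold without replicate 1 of the treated parental cells (adjusted p = 0.0876) or replicate 2 of the treated SDS22-degron cells (adjusted p = 0.0536). MLX overlaps PSMC3IP on the opposite strand, with at most 454 counts.

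MLXIP (chr12:122078722-122147347, plus strand), which encodes the glucose sensor MondoA, was 1.14-fold higher in untreated SDS22-degron cells than in untreated parental cells. It had 159, 153 and 154 CPM in the former and 132, 139 and 138 CPM in the latter, without overlap. With Dox/IAA it had 134, 143 and 141 CPM in SDS22-degron cells and 142, 133 and 139 CPM in parental cells, so that the treated groups overlapped. The log2 difference was 0.19 ± 0.0583 between the untreated lines (adjusted p = 0.0223) and 0.01 between the treated lines, with a 95% confidence interval from -0.11 to 0.13. The former was not called without replicate 1 of the untreated parental cells (adjusted p = 0.0681), without replicate 1 (0.0854) or 2 (0.0571) of the untreated SDS22-degron cells, or without a filter on low counts (0.119). The response to Dox/IAA was -0.16 ± 0.0582 in SDS22-degron cells (adjusted p = 0.0291) and 0.02 in parental cells (adjusted p = 0.834). The former call was lost without any 1 of the 3 untreated SDS22-degron libraries (adjusted p of 0.0951, 0.0588 and 0.0506) or replicate 1 of the treated ones (0.0835). It was also lost with library size only (-0.12, adjusted p = 0.0908), with upper quartile factors (0.053) and without a filter on low counts (0.107).

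**Figure D2:**
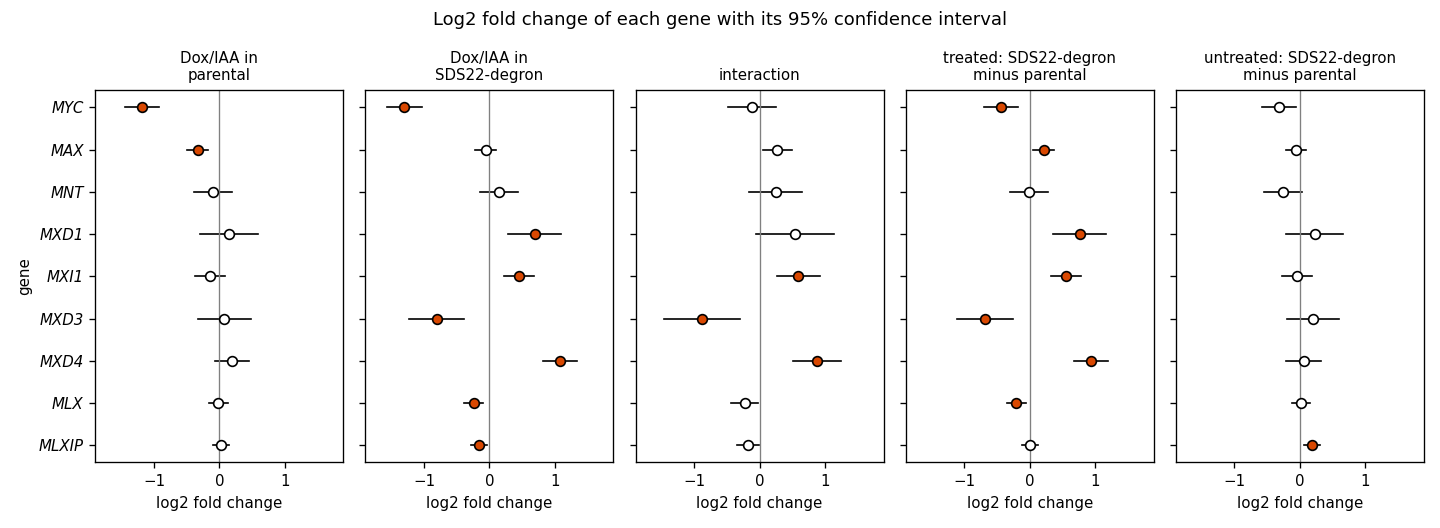
Log2 fold change (horizontal axes) of each network gene (vertical axis) in the 5 comparisons, with its 95% confidence interval as a line. Filled points had an adjusted p under 0.05 in edgeR. MYC was lowered by Dox/IAA in both lines (-1.18 and -1.30), while the changes of MXD4 (1.08), MXD1 (0.69), MXI1 (0.45) and MXD3 (-0.81) were called in SDS22-degron cells and not in parental cells. The interaction was not called for MXD1 (0.54, adjusted p = 0.22), and for MXD3 it passed in 12 of 22 alternatives.

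Levels of different genes can be compared only per length, for which CPM were divided by the deposited length of each gene in kilobases (kb). MYC was the most abundant member in each group, with 160 ± 20.8 CPM per kb in untreated and 70.5 ± 15.3 in treated parental cells, and 128 ± 4.79 in untreated and 52.1 ± 5.90 in treated SDS22-degron cells. In the 3 other groups than treated SDS22-degron cells, the mean levels fell in the order MYC, MLX, MXI1, MAX, MLXIP, MXD4, MNT, MXD3 and MXD1. Neighbours in this order were not always apart: MXI1 and MAX had 14.7 ± 1.92 and 14.5 ± 0.583 CPM per kb in untreated parental cells, and MLXIP and MXD4 had 9.80 ± 0.263 and 8.56 ± 1.55. In treated SDS22-degron cells MXD4 moved up from the sixth to the fourth place, with 18.8 ± 1.902 CPM per kb. Its libraries overlapped there with those of MLX (19.6 ± 0.376) and MXI1 (19.5 ± 0.361) and lay above those of MAX (13.4 ± 0.163). MXD1 (2.90 ± 0.183) and MXD3 (1.78 ± 0.456) exchanged places at the end of the order in that group, without overlap between their libraries. The deposited lengths join all exons of a gene, and may differ from those of the isoforms in these cells.

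The balance of MYC against its antagonists was described for transcripts only, since the counts do not measure protein. The ratio used was MYC over the sum of MXD1, MXI1, MXD3, MXD4 and MNT, all in CPM per kb. Its size depends on the deposited gene lengths. Because the genes were combined with their changes in view, this ratio was not tested. It was 5.12, 5.21 and 4.78 in untreated and 2.29, 1.95 and 2.38 in treated parental libraries. In SDS22-degron cells it was 4.03, 4.03 and 4.07 without and 1.24, 0.958 and 1.13 with Dox/IAA. The order of the 4 groups was without overlap. The mean ratio was 5.03 ± 0.226 and 2.21 ± 0.225 in parental cells, and 4.04 ± 0.0269 and 1.11 ± 0.142 in SDS22-degron cells (SD, n = 3). The summed level of the 5 antagonists was 31.9 ± 4.71, 31.7 ± 3.84 and 31.8 ± 1.10 CPM per kb in the first 3 of these groups and 47.1 ± 2.16 in treated SDS22-degron cells. The share of MXD4 in this sum was between 25.3% and 32.2% in the former 9 libraries and between 38.1% and 42.5% in the treated SDS22-degron libraries. Between treated and untreated parental cells the sum differed by less than the SD of the libraries, whereas the 3 treated SDS22-degron libraries had the highest sums of all 12.

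**Figure D3:**
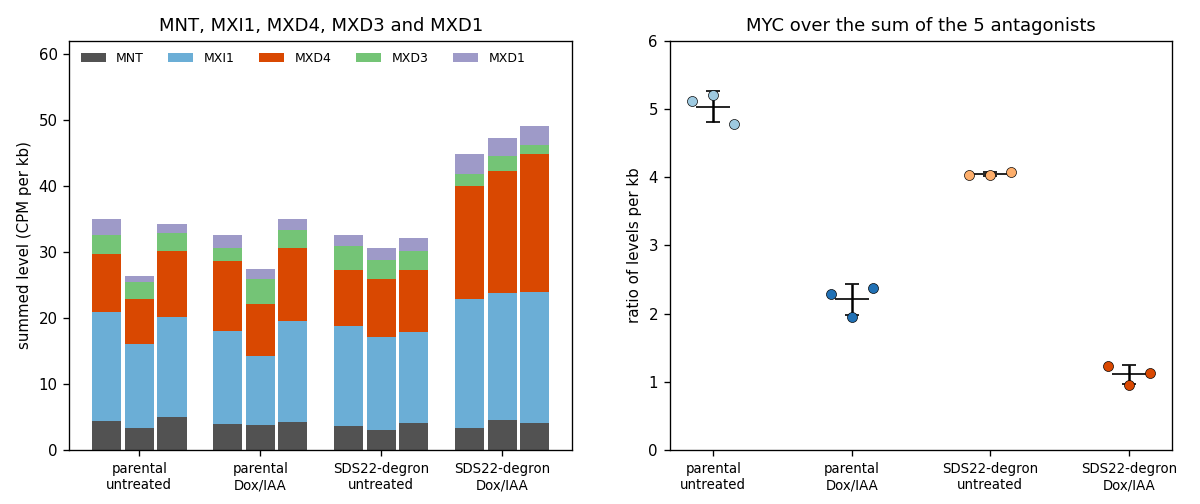
Left, summed level of MNT, MXI1, MXD4, MXD3 and MXD1 (stacked bars, CPM per kb, 1 bar per library, replicates 1 to 3 from left to right). Right, ratio of MYC to that sum, with a point per library and the mean ± SD (n = 3). The sum was near 32 in 3 groups and 47.1 in treated SDS22-degron cells, and the mean ratio lay between 5.03 and 1.11.

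Of the 4 remaining genes of the family, 3 could be tested. MYCN had 0 counts in all libraries. MYCL, a MYC paralogue, was higher in SDS22-degron than in parental cells, both untreated (8.06 ± 0.182 against 5.64 ± 0.474 CPM, log2 difference 0.52, adjusted p = 0.00972) and treated (9.30 ± 1.21 against 5.66 ± 0.659 CPM, 0.72, adjusted p = 0.000346). Its Dox/IAA response was 0.21 (adjusted p = 0.191) in SDS22-degron cells. MGA, a MAX partner that represses germline genes, had log2 fold changes between -0.10 and 0.03 in the 5 comparisons, none past the threshold. MLXIPL, which encodes ChREBP, rose with Dox/IAA in both lines, by 0.42 in SDS22-degron cells (adjusted p = 0.00313) and 0.48 in parental cells (adjusted p = 0.0029).

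Genes known to be activated by MYC were lower with Dox/IAA in both lines. The list of 56 such targets, like the lists below, was written with earlier results of these data known. Its counts are therefore descriptions and not independent support. Of the 56, 55 were tested and CCND2 was not. In SDS22-degron cells 54 were lower and 0 higher with Dox/IAA, with a median log2 fold change of -0.83, whereas 25.5% of all tested genes were lower and their median was 0.005. In parental cells 50 were lower and 0 higher, with a median of -0.49, against 15.7% lower among all tested genes and a median of 0.002. The gene that did not pass in SDS22-degron cells was EIF4A1, a translation initiation factor (-0.07 ± 0.213 SE, adjusted p = 0.803). Its counts were low, with 4.98 ± 0.581 CPM in untreated and 4.72 ± 2.01 CPM in treated SDS22-degron cells. The treated libraries ranged from 3.54 to 7.05 CPM, so this result does not show that EIF4A1 was unchanged. Whether reads of EIF4A1 were lost in counting was not tested. In the interaction, 29 were lower and 0 higher, with a median of -0.32, against 8.35% lower and 6.03% higher among all tested genes. These 29 fell further in SDS22-degron than in parental cells. Between the untreated lines 3 were higher and 8 lower (median -0.02, against 13.2% and 15% of all tested genes), and between the treated lines 46 were lower (median -0.42, against 23.1%). The count of 8 was 14 with a GC correction and the replicate block together, and the count of 3 was as low as 0 in other alternatives.

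The list includes genes of ribosome biogenesis and of the synthesis of nucleotides and polyamines. BOP1, a factor of 60S ribosome assembly, went from 187 ± 1.02 to 84.8 ± 5.004 CPM in SDS22-degron cells (-1.14 ± 0.0612, adjusted p = 5.39e-10) and from 202 ± 0.794 to 134 ± 5.13 CPM in parental cells (-0.59, adjusted p = 1.7e-06). CAD, which catalyses the first steps of pyrimidine synthesis, went from 270 ± 5.95 to 123 ± 8.30 CPM (-1.13, adjusted p = 7.3e-10) and from 267 ± 11.2 to 182 ± 8.13 CPM (-0.56, adjusted p = 6.67e-06). The folate carrier gene SLC19A1 changed by -1.13 in SDS22-degron and -0.43 in parental cells. All 3 had an interaction past the threshold, of -0.55, -0.58 and -0.70 (adjusted p of 0.000312, 0.000363 and 8.96e-05). SRM, the spermidine synthase gene, and GNL3, which encodes nucleostemin, changed by -1.08 and -0.91 in SDS22-degron cells and by -0.56 and -0.59 in parental cells. CDC25A, a phosphatase that drives entry into S phase, had the largest interaction of the list. It went from 38.1 ± 2.11 to 14.9 ± 2.03 CPM in SDS22-degron cells (-1.35 ± 0.116, adjusted p = 3.55e-08), but had 44.4 ± 6.51 and 41.2 ± 3.36 CPM in parental cells (-0.11, adjusted p = 0.469), with an interaction of -1.24 (adjusted p = 6.25e-05).

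Of 12 genes known to be repressed by MYC, 10 were tested, and GAS1 and GADD45G were not. In SDS22-degron cells 7 were higher and 2 lower with Dox/IAA (median 0.68), against 26% and 25.5% of all tested genes. In parental cells 2 were higher and 2 lower (median 0.03), against 15.9% and 15.7%. CDKN1C, an inhibitor of cyclin-dependent kinases, rose in both lines, from 8.69 ± 0.150 to 19.1 ± 0.713 CPM in SDS22-degron cells (1.13, adjusted p = 1.14e-06) and from 8.53 ± 1.54 to 14.7 ± 2.38 CPM in parental cells (0.79, adjusted p = 0.000323). NDRG1, a differentiation-associated gene, rose by 1.12 and 1.10, with an interaction of 0.02 (adjusted p = 0.926). CDKN1A, which encodes p21, rose in SDS22-degron cells (504 ± 53.7 to 824 ± 69.2 CPM, 0.71, adjusted p = 1.18e-06), compared with 263 ± 9.20 and 273 ± 20.5 CPM in parental cells (0.06, adjusted p = 0.65), and the responses differed by 0.65 (adjusted p = 0.0011). It was already higher in SDS22-degron cells without treatment (0.94, adjusted p = 2.58e-07). THBS1, which encodes thrombospondin-1, fell in treated SDS22-degron cells (-0.54, adjusted p = 0.0149) and was higher than in parental cells in both states (1.98 untreated and 1.48 treated). The lower count of 2 in SDS22-degron cells was 0 at its lowest among the alternatives.

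Of 14 genes for MYC coactivators, 4 were higher and 7 lower with Dox/IAA in SDS22-degron cells (median -0.19), against 26% and 25.5% of all tested genes. In parental cells 1 was higher (2 when replicate numbers were blocked) and 4 lower, against 15.9% and 15.7%. The share of higher genes in SDS22-degron cells was thus near that of all tested genes. RUVBL1 and RUVBL2, the ATPases of several chromatin-remodelling complexes, went from 131 ± 4.83 to 67.2 ± 3.84 CPM and from 187 ± 8.75 to 104 ± 3.63 CPM in SDS22-degron cells (-0.96 and -0.84). In parental cells they changed by -0.50 and -0.38, and the interactions were -0.46 for both (adjusted p of 0.00192 and 0.00364). WDR5, which anchors MYC to chromatin, changed by -0.76 in SDS22-degron and -0.34 in parental cells (interaction -0.43, adjusted p = 0.00718). ACTL6A, an actin-related subunit of chromatin remodellers, was lower in SDS22-degron cells both without (-0.85) and with (-1.09) Dox/IAA. The 4 higher coactivators in SDS22-degron cells were 2 at the lowest and 5 at the highest among the alternatives.

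MYC is a short-lived protein, and 22 genes that act on its stability were followed. Of these, 4 were higher and 10 lower with Dox/IAA in SDS22-degron cells (median -0.12), against 26% and 25.5% of all tested genes. In parental cells 3 were higher and 3 lower (5 lower when replicate numbers were blocked), against 15.9% and 15.7%, so that neither count there stood above the background in the fit without the block. AURKA, a mitotic kinase that shields MYC proteins from degradation, went from 102 ± 1.47 to 35.9 ± 3.20 CPM in SDS22-degron cells (-1.51 ± 0.126, adjusted p = 2.53e-08), against -0.13 (adjusted p = 0.451) in parental cells. CIP2A, an inhibitor of phosphatase PP2A that stabilises MYC, went from 50.4 ± 2.27 to 19.8 ± 2.17 CPM (-1.34, adjusted p = 7.73e-08), against 0.01 in parental cells (adjusted p = 0.952). Both responses differed between the lines (-1.38 and -1.36, adjusted p of 6.25e-05 and 5.28e-05). SKP2, the F-box subunit of a ubiquitin ligase of MYC, changed by -0.88 in SDS22-degron cells (adjusted p = 5.8e-07) and -0.24 in parental cells (adjusted p = 0.06). PPP1R10, which encodes the PP1 subunit PNUTS, was lower in SDS22-degron cells than in parental cells both without (-0.46, adjusted p = 0.00033) and with (-0.98, adjusted p = 3.78e-08) Dox/IAA. The level of MYC protein is not measured by these counts.

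The SIN3-HDAC corepressor of the MXD proteins had 16 genes, of which 6 were higher and 4 lower with Dox/IAA in SDS22-degron cells (median 0.04), against 26% and 25.5% of all tested genes. In parental cells 2 were higher and 0 lower, against 15.9% and 15.7%. The share of lower genes in SDS22-degron cells and that of higher genes in parental cells did not exceed those of all tested genes. The count of 6 was 3 without a filter or without replicate 2 of the untreated SDS22-degron cells, and that of 2 ranged from 1 to 5 among the alternatives. SAP30, a small subunit of the complex, went from 12.8 ± 1.23 to 6.33 ± 1.58 CPM in SDS22-degron cells (-1.03 ± 0.160, adjusted p = 3.3e-05), with an interaction of -0.80 (adjusted p = 0.0248). RBBP7, a histone-binding subunit, changed by -0.36 in SDS22-degron and 0.06 in parental cells (interaction -0.41, adjusted p = 0.00635). ARID4B, a chromatin-binding subunit, rose in both lines, by 0.57 (adjusted p = 0.000167) and 0.40 (adjusted p = 0.0072). HDAC1 and RBBP4, the deacetylase and its histone chaperone, were lower in SDS22-degron than in parental cells both untreated (-0.35 and -0.31) and treated (-0.30 and -0.41).

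Of 4 targets of MondoA and ChREBP, 2 could be tested. TXNIP and PKLR had 0 counts in all 12 libraries. TXNIP is usually an abundant transcript and the assignment of its reads could not be checked, so its count of 0 is not evidence that the gene was silent. ARRDC4, an arrestin-like inhibitor of glucose uptake, had 3.99 ± 0.240 CPM in untreated and 13.2 ± 2.94 CPM in treated SDS22-degron cells, against 1.49 ± 0.224 and 1.70 ± 0.733 CPM in untreated and treated parental cells. Its log2 fold change was 1.73 ± 0.197 in SDS22-degron cells (adjusted p = 9.04e-07) and 0.19 ± 0.334 in parental cells (adjusted p = 0.709), with an interaction of 1.54 (adjusted p = 0.0137). KLF10, a transcription factor gene, moved the other way, by -0.33 in SDS22-degron cells (adjusted p = 0.000802) and 0.08 in parental cells (adjusted p = 0.421).

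Among 6 genes beside MYC on chromosome 8, 3 were tested. CASC8, a long non-coding RNA gene, was lower with Dox/IAA in both lines, from 8.66 ± 0.813 to 3.01 ± 0.251 CPM in SDS22-degron cells (-1.52, adjusted p = 6.3e-07) and from 6.33 ± 0.608 to 2.85 ± 0.714 CPM in parental cells (-1.14, adjusted p = 0.000126). PVT1, the non-coding RNA gene next to MYC, changed by -0.29 in SDS22-degron cells (adjusted p = 0.00232) and -0.62 in parental cells (adjusted p = 9.78e-06). It fell less in SDS22-degron than in parental cells (interaction 0.33, adjusted p = 0.0396), a call that was lost in 12 of 22 alternatives. CCAT1, another non-coding RNA gene of the locus, changed by -0.57 (adjusted p = 0.0449) and -0.53 (adjusted p = 0.0535).

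The genes whose log2 CPM followed MYC most closely over the 12 libraries were RRP12, PYCR1, MRPS26, MPRIP and BZW2, with Pearson r between 0.976 and 0.982 among 10850 genes with at least 10 CPM on average. After removal of the group means, r was between 0.567 and 0.732. RRP12 acts in the maturation of pre-ribosomes, PYCR1 in the synthesis of proline and MRPS26 in the mitochondrial ribosome. The genes most like MLX were GTSF1, SLC43A3, HAUS4, BCL2L2 and HDDC2 (r from 0.906 to 0.955, and 0.645 to 0.929 within groups). Those most like MAX were RP11-343H5.4, PODXL, CXorf38, MAP7D3 and GCLC (r from 0.879 to 0.897, and 0.538 to 0.694 within groups). The libraries of a group share their treatment and line, so that these values are descriptions and carry no p.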

How the data were processed

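RNA was sequenced (stranded, poly-A selected, single reads) from 12 libraries in 4 groups of 3, grouped by their labels. The authors deposited raw read counts per gene, with positions and lengths. The submitters' processing notes name GRCh38, cutadapt 1.15, Bowtie2 2.3.3.1, STAR 2.5.2b, SAMtools 1.5 and featureCounts 1.5.3. Gene length and GC content in percent were deposited by the authors in the same table. The annotation release and strand setting are not given in the sources used here. No column was left unassigned. Totals ranged from 12133915 to 14657508.

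Genes were filtered with filterByExpr (minimum count 10), which kept 16657, scaled by TMM, and modelled as 4 group means (edgeR 4.0.16, R 4.3.3). The quasi-likelihood test was used, with Benjamini-Hochberg adjustment over all tested genes and a threshold of 0.05. The study's likelihood ratio test was an alternative. Standard errors on the log2 scale had a median of 0.110 (2 groups) and 0.156 (interaction). Scripts were tested on simulated data. CPM are TMM-normalized, and log2 CPM for correlations used a prior count of 2.

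Named genes were the 9 members, the 3 genes of each list with the smallest p in the SDS22-degron response and the 3 between the treated lines, all genes of lists with up to 6 genes, and the 5 genes most like MYC, MAX and MLX. Gene lists were written from general knowledge. CIP2A was matched by its gene ID under an older symbol, and EIF4A1, CCND2, GAS1 and GADD45G were named after their values were seen. The members and lists were chosen with earlier results of these data known. The labels number the biological replicates 1 to 3 in each group and do not say what same-numbered libraries share. Deviations of same-numbered libraries from their group means correlated above 0.1 in all 3 pairs of the parental response (0.124 to 0.246). The same held for the treated lines (0.101 to 0.138), but not for all pairs of the other comparisons. The main fit has no term for the replicate number. Adjusted p are therefore not paired, unless the block is named. Tried besides were DESeq2 1.42.0, 3 other normalizations, no or a stricter filter (1 CPM), only the groups compared, a replicate block, a loess GC correction (span 0.5), the study's cut-off and each library left out in turn.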

Additional observations from a re-analysis of the deposited data

Results flagged for a closer look

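For 3 members the Dox/IAA effect differed between the lines in the interaction test of edgeR. The effect in SDS22-degron cells minus that in parental cells was 0.88 on the log2 scale for MXD4 (adjusted p = 0.00253) and 0.6 for MXI1 (adjusted p = 0.0144), and both passed in all 22 alternatives that used an adjusted p. It was -0.88 for MXD3 (adjusted p = 0.0394), which passed in 12 of 22.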

How the results depend on the processing

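The depth and 3 libraries per group limited the precision to a median standard error of 0.110 between groups, and 10.8 CPM of MXD1 rest on 122 to 168 reads per library. Of 20 calls on members, 13 were kept in every alternative, leaving aside the study's cut-off. These were MYC, MXI1, MXD1, MXD3, MXD4 and MLX in the SDS22-degron response, MYC and MAX in the parental response, MXI1, MXD1 and MXD4 between the treated lines, and MXI1 and MXD4 in the interaction. With the study's cut-off, 2, 1, 0, 0 and 0 members were called in the SDS22-degron response, the parental response, the treated lines, the untreated lines and the interaction, in place of 7, 2, 7, 1 and 3, since a log2 fold change above 1 in size is then required. Over all tested genes, this cut-off gave 1305, 523, 1105, 689 and 600 in place of 8580, 5264, 7486, 4698 and 2396. Between the untreated lines, 2 members were called with the likelihood ratio test, without a filter, with only the groups compared, and with the GC correction with or without the replicate block, in place of 1. Leaving out each library gave 6 to 7, 2 to 3, 4 to 7 (4 without replicate 2 of the treated SDS22-degron cells), 0 to 3 and 2 to 3 members. The ratio of MYC to its antagonists without division by gene length was 2.54 and 1.10 in untreated and treated parental cells and 2.05 and 0.549 in SDS22-degron cells. Leaving out a library gave 4.95 to 5.16, 2.12 to 2.34, 4.03 to 4.05 and 1.04 to 1.19.

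The direction turned for some values near 0, none of them called in the main fit or in the alternative where the direction turned. In the parental response these were MXD3 (-0.01 with GC correction and block), MLX (0.043 with library size only, 0.008 with upper quartile factors) and MLXIP (-0.027 with GC correction, with or without the block). Between the treated lines they were MNT (0.003 with DESeq2, DESeq2 size factors and only the groups compared, 0.001 with library size, 0.025 with upper quartile factors) and MLXIP (-0.006 without a filter, -0.012 with GC correction, with or without the block), and between the untreated lines MLX (-0.026 with GC correction, -0.024 also with the block). The cause was not tested. With a library left out, the value ranged from -0.101 to 0.021 for MAX in the SDS22-degron response, and in the parental response from -0.244 to 0.023 for MNT, -0.083 to 0.571 for MXD1, -0.194 to 0.288 for MXD3, -0.06 to 0.039 for MLX and -0.011 to 0.047 for MLXIP. It ranged from -0.117 to 0.116 for MNT and -0.011 to 0.041 for MLXIP between the treated lines, from -0.12 to 0.053 for MXI1, -0.056 to 0.183 for MXD4 and -0.024 to 0.092 for MLX between the untreated lines, and from -0.27 to 0.016 for MYC in the interaction.

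With the replicate block, no call on a member changed in the parental response or between the treated lines, where all same-number pairs correlated above 0.1. The adjusted p in edgeR did move, for MYC between the treated lines from 0.00842 to 0.00022. Outside these 2 comparisons, whether the libraries of a number are paired was not settled. Between the untreated lines, the correlation of same-number pairs was above 0.1 in 1 of the 3 (0.058, 0.098 and 0.118). In the SDS22-degron response, this correlation was above 0.1 in 0 of the 3 (-0.009 to 0.095). Over all groups it was -0.06 to 0.25, against -0.18 to 0.09 for other numbers, and 11 of 12 libraries correlated best with a library of their own number. The block gave 2 called members between the untreated lines, where MYC (-0.31, adjusted p = 0.0049) joined MLXIP, and changed no other call on a member. Over all genes the block called 9082 in the SDS22-degron and 5985 in the parental response, 8025 between the treated and 5382 between the untreated lines, and 3128 in the interaction. The share of higher calls in the interaction was 41.9%, and 52% with the GC correction and the block.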
